A study of Homo sapiens with 8 samples.

Results

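Most internal human exons are short, and the spliceosome is thought to recognise such an exon as a unit, with factors on its 3′ and 5′ splice sites contacting each other across it. A long internal exon is harder to pair in this way, and many of them depend on enhancer sequences, on proteins that package them or on pairing across short introns instead. CHERP is a nuclear protein that associates with the U2 snRNP, the particle that binds the branch point upstream of the 3′ splice site, and its depletion asks which exons need it. The exons described here are the skipped exons longer than 300 nt: in the authors' rMATS tables of skipped exons (SE), 2192 of 52810 distinct exons passed this length, of which 1961 were in the whole-cell table, 1142 in the cytoplasmic table and 911 in both. An exon can be listed with several pairs of flanking exons, and each long exon was represented by the 1 event with most reads in whole cells, or in the cytoplasm for the 231 exons listed there alone. For 841 of the exons the same event was in both tables. The 1961 whole-cell exons lay in 1670 genes and formed 1841 regions that did not overlap each other.

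The cells were U2OS, a human osteosarcoma line. They received 20 nM of either EGFP siRNA, whose target gene is absent from them, or the siRNA CHERP#2. RNA was taken 48 h later from whole cells or from the supernatant of an NP-40 lysis, called the cytoplasm. Each of the 4 groups had 2 libraries from biological duplicates, made from poly(A)+ RNA with a stranded kit. A single CHERP siRNA was used, so that effects of this sequence on other genes cannot be told apart from effects of CHERP.

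Summed over the SE events, the libraries held between 19287081 and 23480646 reads in whole cells and between 3826409 and 4685633 in the cytoplasm. Reads on CHERP fell from 103 and 77 with EGFP siRNA to 3 and 10 with CHERP siRNA in whole cells, a log2 change of -3.46 ± 0.61 (SE, adjusted p = 0.0215), and from 31 and 21 to 3 and 4 in the cytoplasm. Of 9 cell type markers, 4 had an event in these tables. VIM and FN1, mesenchymal genes, had at least 687 reads in every library, RUNX2, a bone transcription factor, had 16 and 18 reads in the whole-cell EGFP libraries and 0 and 3 with CHERP siRNA, and CDH1, an epithelial adhesion gene, had 1 and 1 against 22 and 15. The part of these shifts in the results was not tested. SPARC, COL1A2, PTPRC, EPCAM and PECAM1 had no event listed and were not checked.

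For each library the inclusion level is the share of molecules that hold the exon, from the reads on the exon and its junctions divided by the length they can fall on, against the reads on the skipping junction divided by theirs. The length for the skipping form was 144 positions in whole cells and 73 in the cytoplasm, so read length changed together with the fraction and their effects cannot be told apart. Reads inside a long exon add to its inclusion count. The median long exon had 159 inclusion reads and 1 skipping read per library in whole cells, and 38.0 and 0.5 in the cytoplasm. In whole cells 1737 of the 1961 exons had a mean of under 10 reads of the rarer form, which is where the precision of the level is set.

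The 3′ splice site before an exon and the 5′ splice site behind it are what the spliceosome must pair across these lengths, and they are shown here for 14 exons whose inclusion differed between the siRNAs. The first run of each pair is the end of the upstream intron and the start of the exon, the second the end of the exon and the start of the downstream intron, read 5′ to 3′ in the sense of the gene from GRCh37 (hg19). Capitals mark the exon.
RTN3, 2331 nt, chr11:63486174-63488504, plus strand, 3′ splice site: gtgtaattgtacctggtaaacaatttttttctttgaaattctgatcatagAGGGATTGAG
RTN3, 5′ splice site: GACTTCTCAGgtaaccatttatattagaat
MAP4, 3384 nt, chr3:47950528-47953911, minus strand, 3′ splice site: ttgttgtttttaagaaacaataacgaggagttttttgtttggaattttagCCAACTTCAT
MAP4, 5′ splice site: AAGTCCGCTGgtatgaacctgccatgggga
NIPBL, 1626 nt, chr5:36984778-36986403, plus strand, 3′ splice site: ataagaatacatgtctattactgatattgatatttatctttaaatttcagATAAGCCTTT
NIPBL, 5′ splice site: TCAAATAAAGgtaagaatacttctactgat
NDUFV3, 1095 nt, chr21:44323292-44324386, plus strand, 3′ splice site: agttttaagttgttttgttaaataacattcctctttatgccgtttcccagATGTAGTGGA
NDUFV3, 5′ splice site: GGCACACAGGgtataccttgactcgcgctc
WAC, 309 nt, chr10:28884662-28884970, plus strand, 3′ splice site: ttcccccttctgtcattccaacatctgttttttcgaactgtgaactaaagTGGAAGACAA
WAC, 5′ splice site: GAAAGAAAAGgtatgccattattactagat
TRA2A, 312 nt, chr7:23561740-23562051, minus strand, 3′ splice site: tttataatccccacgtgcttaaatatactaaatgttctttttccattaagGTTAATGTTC
TRA2A, 5′ splice site: TTAAGTAAATgtatggtttatgttccagtg
TIAL1, 376 nt, chr10:121339983-121340358, minus strand, 3′ splice site: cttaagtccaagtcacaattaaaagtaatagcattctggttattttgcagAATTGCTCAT
TIAL1, 5′ splice site: AACAGGCCATgtatgcctttttaattccta
ACIN1, 1358 nt, chr14:23536523-23537880, minus strand, 3′ splice site: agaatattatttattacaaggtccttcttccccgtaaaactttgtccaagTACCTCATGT
ACIN1, 5′ splice site: AAGATCCCAGgtgtgagatggtacctggaa
F3, 495 nt, chr1:95006128-95006622, minus strand, 3′ splice site: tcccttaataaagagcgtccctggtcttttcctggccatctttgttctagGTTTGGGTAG
F3, 5′ splice site: GGATTACAAGgtgaatcttgtcatgaagaa
WNK1, 459 nt, chr12:988739-989197, plus strand, 3′ splice site: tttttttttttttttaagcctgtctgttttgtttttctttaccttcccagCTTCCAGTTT
WNK1, 5′ splice site: TCTGTACCAGgtattgtgttagttagcaaa
FBXO38, 735 nt, chr5:147806776-147807510, plus strand, 3′ splice site: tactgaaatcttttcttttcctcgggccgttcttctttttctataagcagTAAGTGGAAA
FBXO38, 5′ splice site: TCTGAGTCAGgtatgacaatgctcctagga
SPG7, 357 nt, chr16:89615388-89615744, plus strand, 3′ splice site: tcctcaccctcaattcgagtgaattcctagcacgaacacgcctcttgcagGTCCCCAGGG
SPG7, 5′ splice site: AGCCTCACCAgtaagctgaacaggggagat
SREBF2, 317 nt, chr22:42295241-42295557, plus strand, 3′ splice site: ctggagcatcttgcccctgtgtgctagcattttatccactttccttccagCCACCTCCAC
SREBF2, 5′ splice site: GCTGAGAAGAgtgagtatacacaggcttga
STEAP3, 415 nt, chr2:119988196-119988610, plus strand, 3′ splice site: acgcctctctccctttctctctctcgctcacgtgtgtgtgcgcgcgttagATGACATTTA
STEAP3, 5′ splice site: CCTGCTGTTGgtaagtctggctaggacgca

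Each of these introns ended in AG and began with GT, as did those of all 54 long exons called below and of 99.8% and 98.9% of the 1961 long exons. A splice site was scored by the log2 odds of its bases under the frequencies of the SE exons of at most 300 nt against equal frequencies. The long exons scored much like the shorter ones, with medians of 9.44 and 9.34 at the 3′ splice site and 8.12 and 7.98 at the 5′ splice site. Among the exons printed, the 3′ splice sites of WAC, ACIN1 and STEAP3 had scores below 0, at -0.283, -0.477 and -0.118. Of the 5′ splice sites, those of NDUFV3 (3.45), SPG7 (5.28), TIAL1 (5.39), TRA2A (5.72), WNK1 (6.20) and SREBF2 (6.21) scored below the lower quartile of 6.42 of the long exons, and that of NIPBL scored 11.5.

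The long exons were another mix of gene parts than the shorter ones. They had a median length of 494 nt and reached 9379 nt, against a median of 111 nt for the 46544 shorter exons. In GENCODE 44, 40.1% of the long exons were coding along their whole length, against 73.7% of the shorter exons. A further 18.4% against 4.79% were partly coding, 12.7% against 7.25% were listed only in transcripts marked for nonsense-mediated decay, and 22.7% against 7.62% only in noncoding transcripts. An annotated intron lay inside 404 of the long exons, or 20.6%, against 0.266% of the shorter ones, so that part of this class is a retained intron with its neighbours rather than a single exon. Moreover, 60.1% of the long exons shared a splice site with an annotated first or last exon, against 41.3% of the shorter exons, and reads of such a terminal exon count as inclusion.

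In most cases the long exon was kept. With EGFP siRNA 1329 of the 1961 exons had an inclusion level above 0.9, 472 lay between 0.1 and 0.9, and 160 lay under 0.1. The median level was 0.977 with EGFP siRNA and 0.973 with CHERP siRNA, and the median change, CHERP minus EGFP, was -0.00124, beside -1.65e-05 over all SE exons. For the coding long exons the median level with EGFP siRNA was 0.988, for those in nonsense-mediated decay transcripts alone 0.779, and for those in the 5′ UTR 0.252.

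After CHERP depletion 29 long exons rose and 25 fell in whole cells, out of the 1961 tested (adjusted p under 0.05, quasi-binomial test adjusted over all SE events). They made up 2.75% of the long exons, where 1.18% of all 48505 SE exons were called. By direction, 1.48% rose and 1.27% fell, against 0.577% and 0.604% of all SE exons. The 54 exons lay in 50 genes and 51 regions, since RTN3, FBXO38 and TRA2A each had a pair of overlapping exons that share reads. Long exons carried a median of 177 reads per library, against 98.5 over all SE exons, and the part of this depth in the larger share was not tested. All 54 had levels that did not overlap between the siRNAs, as did 525 of the 1961 exons and 25.5% of all SE exons. In 37 of the 54, of which 23 rose and 14 fell, the change was at least 0.1.

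The test gave each event the spread that events of its read depth have, and its own spread had no weight. Where the event's own spread was used whenever it was larger, 37 of the 54 remained, 20 higher and 17 lower, and those that did not are named as such below. By limma on the log2 odds none was called, and other handlings of the dispersion floor, chosen after seeing the data, gave 0 or 129. When 1 library was left out, between 3 and 5 long exons were called, and none of the 54 changed sign.

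**Figure D1:**
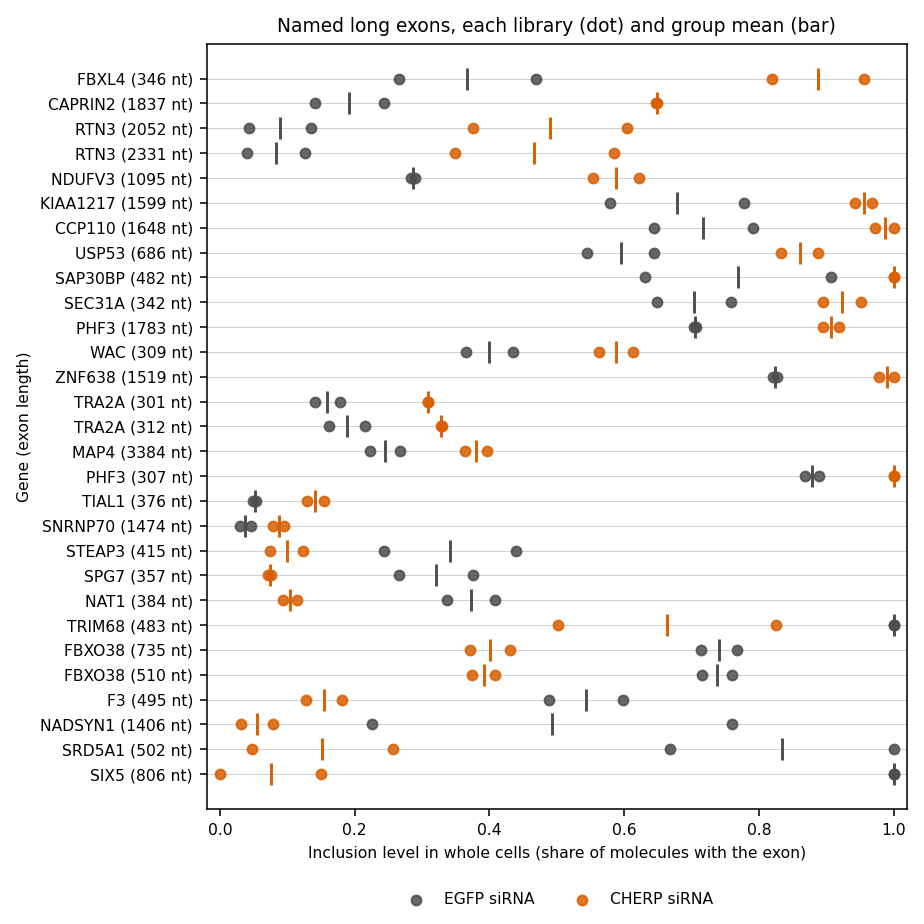
Inclusion level in whole cells (x axis, share of molecules with the exon) of the long exons named by rule for a call in either fraction or from a list, 1 exon per line, with a dot for each of the 4 libraries and a bar for each group mean. The grey EGFP siRNA dots and the orange CHERP siRNA dots do not overlap in any line, and the dots of NADSYN1 and SRD5A1 lie far apart within the EGFP siRNA group.

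Rises and falls were spread unevenly over the lengths, which is described without a test. Among the 380 exons over 1000 nt, 18 rose and 3 fell, a share of 4.74% higher and 0.789% lower. Most of these rises, but not these falls, shared a splice site with an annotated first or last exon, whose reads count as inclusion. The exceptions were the rises of RTN3 (2331 nt), NIPBL, YTHDF1 and PTRH2. Among the 1581 exons from 301 to 1000 nt, 11 rose and 22 fell, a share of 0.696% and 1.39%. All 5 called exons over 2000 nt rose, out of 112. They include the overlapping RTN3 pair, which shares reads and was not called with its own spread. The SE exons of at most 300 nt had 0.539% higher and 0.576% lower, with the shortest of them, up to 100 nt, at 0.862% and 0.496%. The median change was 0.00425 over the exons above 1000 nt and -0.00221 over the others, and the exons above 1000 nt had more reads, with a median of 394 per library against 154. At the length limit itself, 3 of the 117 exons of 301 to 310 nt rose and none fell, and 1 of the 121 exons of 291 to 300 nt rose and 3 fell.

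**Figure D2:**
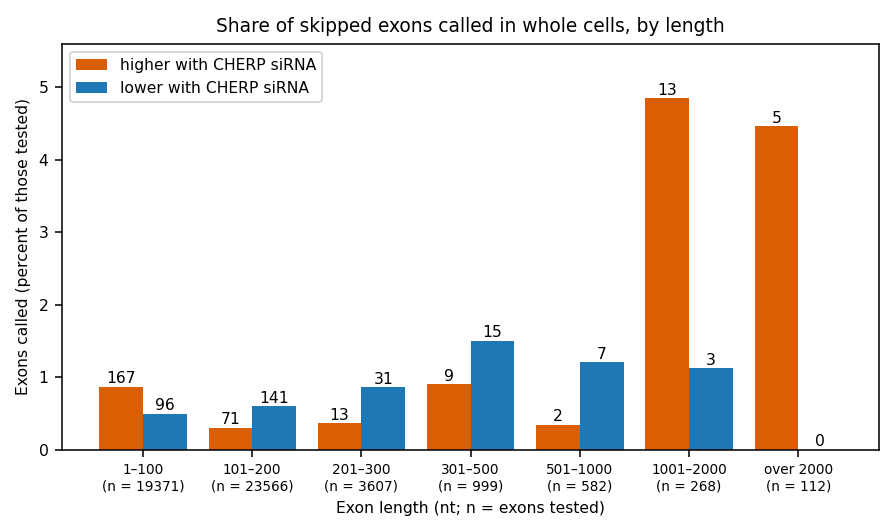
Share of the SE exons of each length class (x axis, nt, with the number tested) that was called higher (orange) or lower (blue) in whole cells (y axis, percent), with the number of exons above each bar. Above 1000 nt the orange bars stand over the blue ones, with 13 against 3 and 5 against 0 exons. The 5 exons include the overlapping RTN3 pair. From 101 to 1000 nt the blue bars are the taller ones.

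**Figure D3:**
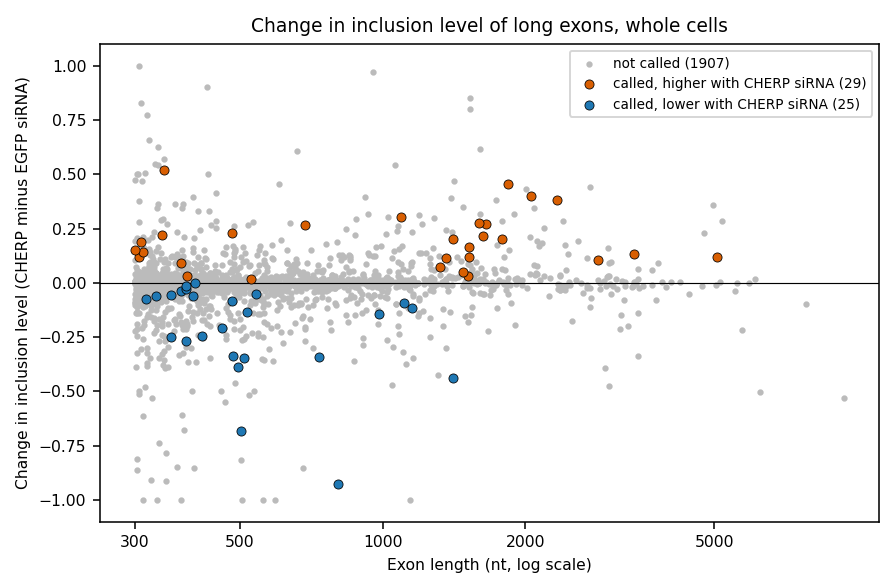
Change in inclusion level (y axis, CHERP minus EGFP siRNA, whole cells) against exon length (x axis, nt, log scale) for the 1961 long exons, with the 29 called rises in orange, the 25 called falls in blue and the 1907 others in grey. Of the grey points, 42 have changes above 0.5 in size, with a median of 3.88 reads per library. The called exons to the right of 2000 nt, among them the overlapping RTN3 pair, all lie above 0.

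The calls are also given by gene part, without a test, beside the 1.48% higher and 1.27% lower of all long exons. Of the 787 wholly coding exons 15 rose and 4 fell, or 1.91% and 0.508%, and of the 151 coding exons above 1000 nt 10 rose and 0 fell at the adjusted threshold. Of the 10 coding rises above 1000 nt, only RTN3 (2331 nt), NIPBL and YTHDF1 shared no splice site with a first or last exon. Of the 446 exons found only in noncoding transcripts 1 rose and 7 fell, or 0.224% and 1.57%. The 100 exons of the 5′ UTR had 2 rises and 5 falls, the 250 exons of nonsense-mediated decay transcripts 5 and 4 (2.00% and 1.60%), and the 361 partly coding exons 6 and 5 (1.66% and 1.39%). With an annotated intron inside, 4 of 404 rose and 1 fell. Where no splice site was shared with a first or last exon, 11 of 782 rose and 14 fell. Where such a site was shared, 18 of 1179 rose and 11 fell. Among these rises are the exons of NDUFV3, MAP4, WAC, SEC31A, KIAA1217, CCP110, ZNF638, KIAA1551, ZHX1, ACIN1, SNRNP70 and PHF3 (1783 nt). Further rises with such a site were those of RTN3 (2052 nt), CAPRIN2, USP53, SAP30BP, SDCBP and DYX1C1-CCPG1. The falls with such a site were those of FBXO38, SIX5, SPG7, NAT1, POFUT2, SMIM7, RMND1, ANXA2, LINC00152 and MIR4435-1HG. Reads of the terminal exons count as inclusion in all of these.

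Base composition and flanking introns of the called exons were compared in the same way. The rises had a median GC content of 40.4% with quartiles of 38.0% and 45.5%, the falls 50.8% with quartiles of 48.1% and 56.1%, and the long exons not called 49.6%. The upstream intron of the rises had a median of 6980 nt and that of the falls 1736 nt, against 2497 nt for the exons not called. The splice site scores lay closer together, with medians of 9.60 for the rises and 10.3 for the falls at the 3′ splice site and 7.62 and 7.29 at the 5′ splice site. These properties are described without a test, and length and gene part differ between the directions at the same time.

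Among the coding exons that rose, RTN3, a membrane protein that shapes the tubules of the endoplasmic reticulum, had the change with the smallest adjusted p. Its 2331 nt exon, the long internal exon of the largest isoforms, had inclusion levels of 0.0399 and 0.127 in the EGFP siRNA libraries and of 0.349 and 0.584 with CHERP siRNA. The mean rose from 0.0832 ± 0.0612 to 0.467 ± 0.167 (SD, n = 2 each), a change of 0.383 (adjusted p = 1.81e-15). The libraries of each siRNA were also far apart from each other, and with the event's own spread the adjusted p was 0.156. The 2052 nt form, which starts at a later 3′ splice site and shares the rest, went from 0.0426 and 0.135 to 0.375 and 0.605. The reads behind the longer form were 80 and 117 on inclusion with EGFP siRNA against 221 and 290 with CHERP siRNA, and 112 and 47 against 24 and 12 on skipping, so that both kinds moved. RTN3 as a whole was lower with CHERP siRNA, by a log2 change of -1.55 ± 0.13 (SE, adjusted p = 0.00794). In bulk RNA, less RNA per cell and fewer cells that make it cannot be told apart.

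NDUFV3, a subunit of mitochondrial complex I with a long and a short isoform that differ by this exon, had levels of 0.289 and 0.283 for its 1095 nt exon with EGFP siRNA and of 0.622 and 0.554 with CHERP siRNA. The level rose by 0.302, from 0.286 ± 0.00419 to 0.588 ± 0.0484 (SD, n = 2 each, adjusted p = 0.00567). The exon shares its 3′ splice site with an annotated last exon, whose reads count as inclusion. The inclusion reads increased from 112 and 119 to 340 and 395 while the skipping reads stayed between 24 and 37. Its length is a multiple of 3, as was that of 10 of the 15 coding exons that rose and of 44.6% of all coding long exons.

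MAP4 encodes a protein that binds and stabilises microtubules. Its exon of 3384 nt was the only one called from the list of genes with very long internal exons. It had levels of 0.223 and 0.266 with EGFP siRNA and of 0.363 and 0.396 with CHERP siRNA. The rise of 0.135 rested on many reads, with 1478 and 2216 inclusion reads against 3464 and 3579, and held with the event's own spread (adjusted p = 5.78e-06 and 0.00155). The exon shares its 5′ splice site with an annotated first exon, whose reads count as inclusion. A shorter MAP4 exon of 1224 nt was near 1 with both siRNAs.

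WAC encodes an adaptor of H2B ubiquitination with a role in the cell cycle. Its 309 nt exon had levels of 0.364 and 0.436 with EGFP siRNA and of 0.613 and 0.563 with CHERP siRNA. The rise of 0.188, from 0.400 ± 0.0503 to 0.588 ± 0.0358 (SD, n = 2 each), was called in whole cells (adjusted p = 4.1e-05) and in the cytoplasm. SEC31A, a coat protein of the vesicles that leave the endoplasmic reticulum, had a 342 nt exon that rose from 0.759 and 0.648 to 0.895 and 0.951 (adjusted p = 0.000682).

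**Figure D4:**
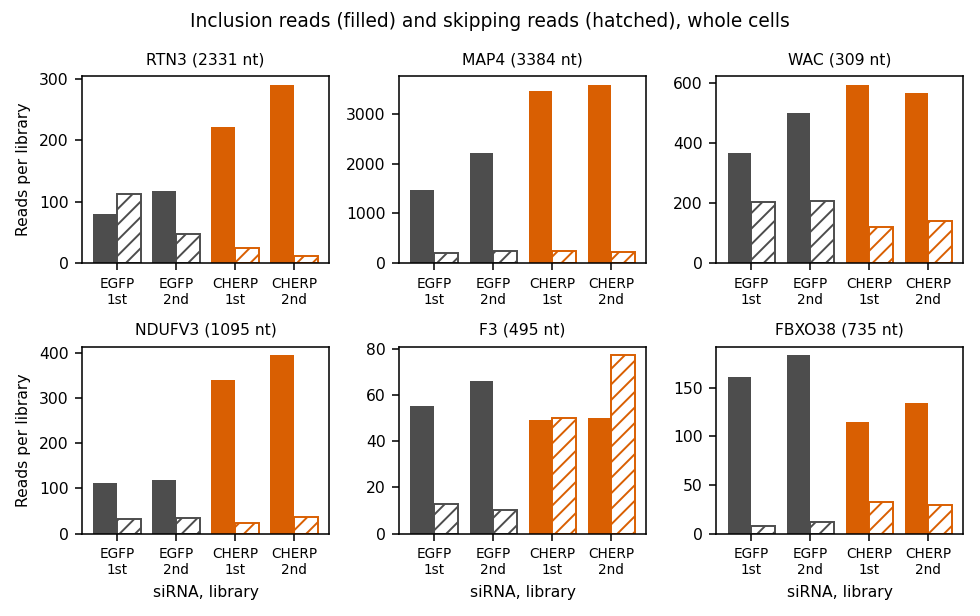
Inclusion reads (filled bars) and skipping reads (hatched bars) per whole-cell library (y axis) for 6 long exons, with EGFP siRNA in grey and CHERP siRNA in orange. For NDUFV3 and MAP4 the inclusion bars grow while the skipping bars stay level, for RTN3 and WAC the skipping bars also shrink, and for F3 and FBXO38 the skipping bars grow.

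A second set of coding exons was kept in most molecules with EGFP siRNA and in nearly all with CHERP siRNA. The 1648 nt exon of CCP110, which encodes a centriolar protein that holds back cilium growth, had levels of 0.644 and 0.791 against 1.00 and 0.973. The 1599 nt exon of KIAA1217 had 0.579 and 0.778 against 0.968 and 0.942. In PHF3, a regulator of RNA polymerase II elongation, neighbouring exons of 1783 and 307 nt both rose, from 0.707 and 0.703 to 0.895 and 0.918 and from 0.889 and 0.869 to 1.00 and 1.00. All these calls but that of CCP110 (adjusted p = 0.0493 and, with its own spread, 0.0599) held with the event's own spread.

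In ZNF638, a nuclear zinc finger protein, the 1519 nt exon that holds the start codon went from 0.820 and 0.826 to 0.979 and 1.00 (adjusted p = 0.0137). NIPBL, the protein that loads cohesin on chromosomes, is named here after its values were seen: its 1626 nt exon went from 0.741 and 0.694 to 0.921 and 0.944 (adjusted p = 0.00765). The same holds for the 5080 nt exon of KIAA1551, the longest of the called exons, at 0.908 and 0.854 against 0.996 and 1.00. Its skipping reads were 13 and 29 against 1 and 0, beside at least 4636 inclusion reads in each library. These rises therefore rest on the loss of a small number of skipping reads.

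FBXL4, an F-box protein of mitochondria, had the largest rise, of 0.521, for a 346 nt exon with levels of 0.469 and 0.266 against 0.820 and 0.957 (adjusted p = 0.0205). Its skipping reads were 4 and 13 against 4 and 1. With the dispersion of events whose rarer form had 10 or more reads, the adjusted p was 0.0549. In the cytoplasm the change was -0.356, on a mean of 6.5 reads per library. CAPRIN2, an RNA-binding protein, had an exon of 1837 nt with an annotated intron inside, which rose from 0.243 and 0.142 to 0.648 and 0.647 (adjusted p = 5.08e-06). For USP53 (686 nt) and SAP30BP (482 nt) the means rose by 0.266 and 0.231, but with their own spread the adjusted p were 0.0581 and 0.195. The exons of CAPRIN2, USP53 and SAP30BP each share a splice site with an annotated first or last exon. In SAP30BP, a transcriptional and splicing co-factor whose exon holds an annotated intron, the EGFP siRNA levels were 0.907 and 0.631, and the change of 0.231 became 0.0928 without the second EGFP library and 0.369 without the first. The change of KIAA1217 was likewise 0.177 without the first EGFP library, against 0.277.

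Further rises were also named after their values were seen. The 1406 nt exon of DYX1C1-CCPG1, a readthrough locus, which holds an annotated intron and shares splice sites with terminal exons, went from 0.816 and 0.760 to 0.985 and 0.992 (adjusted p = 0.000176), and the 1521 nt exon of YTHDF1, a reader of N6-methyladenosine, from 0.849 and 0.798 to 0.957 and 0.927 (adjusted p = 0.0428). ZHX1, a transcriptional repressor, had a 2850 nt exon at 0.894 and 0.861 against 0.976 and 0.989. PTRH2, a mitochondrial peptidyl-tRNA hydrolase, had one of 1319 nt at 0.0796 and 0.0868 against 0.159 and 0.152 (adjusted p = 3.38e-10). The rises of SDCBP and CCDC50 were 0.0306 and 0.0197, and neither they nor that of YTHDF1 were called with their own spread.

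Further called exons lay in the 5′ UTR, only in noncoding transcripts or in transcripts marked for nonsense-mediated decay. TRA2A, a splicing activator, had a 5′ UTR exon of 301 nt with levels of 0.141 and 0.177 with EGFP siRNA and of 0.308 and 0.309 with CHERP siRNA. The mean rose from 0.159 ± 0.0259 to 0.309 ± 0.000926 (SD, n = 2 each, adjusted p = 0.000356). The overlapping 312 nt form, found only in noncoding transcripts, ends at another 5′ splice site and rose by 0.140 (adjusted p = 0.00263). TRA2A as a whole was lower in whole cells, by a log2 change of -0.69 ± 0.13 (SE, adjusted p = 0.0246).

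TIAL1, an RNA-binding protein that promotes the use of weak 5′ splice sites, had a 376 nt exon of a nonsense-mediated decay transcript with no open reading frame through it. Its levels were 0.0489 and 0.0542 with EGFP siRNA against 0.129 and 0.155 with CHERP siRNA (adjusted p = 0.000229), from 31 and 49 inclusion reads against 96 and 119. SNRNP70, the 70K protein of the U1 snRNP, holds a 1474 nt exon of the same kind, with levels of 0.0456 and 0.0299 against 0.0786 and 0.0957 (adjusted p = 1.44e-09). ACIN1, a partner of the exon junction complex named after its values were seen, had an exon of 1358 nt at 0.0831 and 0.0842 against 0.185 and 0.214 (adjusted p = 1.25e-07). All 3 held with the event's own spread, with adjusted p of 0.000276, 0.016 and 1.59e-07.

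The largest fall was that of SIX5, a homeobox factor, whose 806 nt exon went from 1.00 and 1.00 to 0.15 and 0.00 (adjusted p = 0.0205). It rests on 26 and 38 against 7 and 0 inclusion reads and on 0 and 0 against 6 and 3 skipping reads. The level from the second CHERP library thus stands on 3 reads. In the cytoplasm the SIX5 exon had mean levels of 0.346 with EGFP siRNA and 0.600 with CHERP siRNA, which was not called. These levels rest on a mean of 11.25 reads per library. SRD5A1, a steroid reductase, and NADSYN1, which makes NAD, had falls of -0.682 and -0.437 that were not called with their own spread (adjusted p of 0.518 and 0.39). The NADSYN1 exon of 1406 nt had 0.225 and 0.760 with EGFP siRNA, and its change was -0.170 without the second EGFP library and -0.704 without the first. TRIM68, with 1.00 and 1.00 against 0.502 and 0.825, had an adjusted p of 0.329 with its own spread, and its change was -0.175 without the first CHERP library.

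Among the falls with many reads on both forms, F3, the tissue factor that starts blood coagulation, had a 495 nt exon of a noncoding transcript at 0.488 and 0.598 with EGFP siRNA and at 0.181 and 0.128 with CHERP siRNA. The level fell from 0.543 ± 0.0777 to 0.154 ± 0.0376 (SD, n = 2 each), a change of -0.389 (adjusted p = 6.13e-05). Its inclusion reads stayed between 49 and 66 while the skipping reads increased from 13 and 10 to 50 and 77. The exon and its introns of 470 and 203 nt span a short stretch of the gene. F3 as a whole was higher, by a log2 change of 1.89 ± 0.19 (SE, adjusted p = 0.00868).

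FBXO38, an F-box protein that targets PD-1 for degradation, had coding exon forms of 735 and 510 nt that start at the same 3′ splice site. The longer form had levels of 0.767 and 0.714 with EGFP siRNA and of 0.371 and 0.431 with CHERP siRNA, a change of -0.340 (adjusted p = 0.0228). The shorter form had a change of -0.346, and both share the same skipping reads, 8 and 12 against 32 and 29. Both are multiples of 3 in length and kept their call with their own spread.

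SPG7, a protease of the mitochondrial inner membrane, had a 357 nt exon of a noncoding transcript at 0.266 and 0.375 against 0.0755 and 0.0718, a change of -0.247 (adjusted p = 3.61e-06). NAT1, an arylamine acetyltransferase, had a 5′ UTR exon of 384 nt at 0.407 and 0.337 against 0.0935 and 0.115 (adjusted p = 0.0049). The exons of SPG7 and NAT1 each share their 5′ splice site with an annotated first exon, whose reads count as inclusion. STEAP3, an iron reductase, had a 415 nt exon at 0.440 and 0.244 against 0.0738 and 0.124. The STEAP3 call was lost with its own spread (adjusted p = 0.0726), and without the first EGFP library its change was -0.145 in place of -0.243.

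The other falls were smaller and were named after their values were seen. WNK1, a kinase that senses chloride and cell volume, had a coding exon of 459 nt at 0.298 and 0.235 against 0.0578 and 0.0557 (change -0.210, adjusted p = 2.25e-05). SREBF2, the transcription factor of cholesterol synthesis, had a 317 nt exon of a nonsense-mediated decay transcript at 0.0890 and 0.108 against 0.0225 and 0.0244 (adjusted p = 2.45e-05). RHOC, a small GTPase, had a 5′ UTR exon of 1153 nt with an annotated intron inside at 0.230 and 0.243 against 0.110 and 0.136 (adjusted p = 5.03e-07). The falls of BCAT2, MSANTD3, TIMM8B, SMIM7, DECR1, POFUT2 and CCNK lay between -0.0920 and -0.0354. CARS2 and RMND1 were not called with their own spread, and their changes were -0.144 and -0.133. That of CARS2 became -0.0606 without the second and -0.227 without the first EGFP library, and that of RMND1 -0.0683 without the second CHERP library. BCAT2 moved from -0.0858 to -0.0554 without the second EGFP library.

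A few calls concern forms of very low level or of uncertain origin. The 403 nt exon of ANXA2 fell from 0.00445 and 0.00547 to 0.00228 and 0.00239, beside 10017 to 18340 skipping reads per library, and this gene has processed pseudogenes. LINC00152 and MIR4435-1HG, near-identical noncoding genes on chromosome 2, each had a 385 nt exon that fell, by changes of -0.0278 and -0.0154, and reads may be split between them. Neither was called with its own spread (adjusted p of 0.614 and 0.065).

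The longest tested exons with at least 20 reads were those of XIRP2 (9379 nt), ANK3 (7812 nt) and ANK2 (6255 nt), which encode proteins of the cytoskeleton. XIRP2 had levels of 0.435 and 1.00 against 0.190 and 0.183 and ANK2 of 0.213 and 1.00 against 0.123 and 0.0853. ANK3 had 0.221 and 0.0307 against 0.0293 and 0.0316. None was called (adjusted p of 0.761, 0.748 and 0.761), and in all 3 the EGFP siRNA libraries lay far apart, on at most 14 skipping reads per library.

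By fixed list, the genes with very long internal exons had 24 long exons in 18 genes, of which only that of MAP4 was called. Of these, 15 had a positive and 9 a negative change, with a median of 0.00937, where all long exons had 942 and 1017 and a median of -0.00124. The 2730 nt exon of DST, a giant linker of the cytoskeleton, had a mean of 0.493 against 0.935 and an adjusted p of 0.105. The 5916 nt exon of SON, a splicing co-factor, stayed near 1, at 0.997 and 0.997. Of the 9 long exons of SR and TRA2 factors, 2 were called, those of TRA2A given above. A 726 nt exon of TRA2A that overlaps them changed by -0.0144 and was not called (adjusted p = 0.761). The long exons of SRSF3, SRSF5 and SRSF7 changed by at most 0.0147 in size and were not called.

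The other RNA processing factors had 22 long exons with 2 rises, those of TIAL1 and SNRNP70, and 0 falls. The chromatin regulators had 21 exons with 2 rises, both in PHF3, and 0 falls. Among the zinc finger genes, named by symbol, 1 of 75 exons rose, in ZNF638, none fell, and 47 had a positive change against 27 with a negative one. Of 19 long exons of genes of cell division and DNA repair none was called, and 15 had a positive and 4 a negative change, with a median of 0.0385. The part of read depth in the lack of calls was not tested.

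In the cytoplasm 3 of 1072 long exons tested were called, the pair of RTN3 and that of WAC, all higher, where 0.245% of 24535 SE exons were called. At an unadjusted p under 0.05 there were 57. All 3 calls were lost without any one library and on the log2 odds, while 19 exons, 10 higher and 9 lower, were called with the dispersion of events whose rarer form had 10 or more reads. That setting called 288 of all 31924 cytoplasmic SE events. The RTN3 exon of 2331 nt had cytoplasmic levels of 0.0105 and 0.0176 with EGFP siRNA and of 0.0560 and 0.0689 with CHERP siRNA, a rise of 0.0484 (adjusted p = 0.0089). In whole cells its levels were several times higher with each siRNA. WAC had 0.498 and 0.485 against 0.693 and 0.780 in the cytoplasm, a rise of 0.245 (adjusted p = 0.00862).

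Of the 54 exons called in whole cells, 49 had reads in the cytoplasm, and 43 of them changed in the same direction there, 22 of 26 rises and 21 of 23 falls. Over all SE exons called in whole cells this was so for 460 of 492, or 93.5%. With a mean of at least 20 cytoplasmic reads it was 34 of 36 long exons, or 94.4%, beside 380 of 396 of all SE exons, or 96.0%. The median change of these 36 was 0.137 in whole cells and 0.0534 in the cytoplasm, taken in the direction of the whole-cell change. Over the 396 SE exons the medians were 0.134 and 0.0840. Both sets were chosen on the whole-cell libraries, and the part of this choice in the smaller cytoplasmic change was not tested. The falls of FBXO38 (-0.340 and -0.301 for 735 nt) and the rises of SEC31A (0.220 and 0.272) and NDUFV3 (0.302 and 0.231) were of similar size in both fractions.

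**Figure D5:**
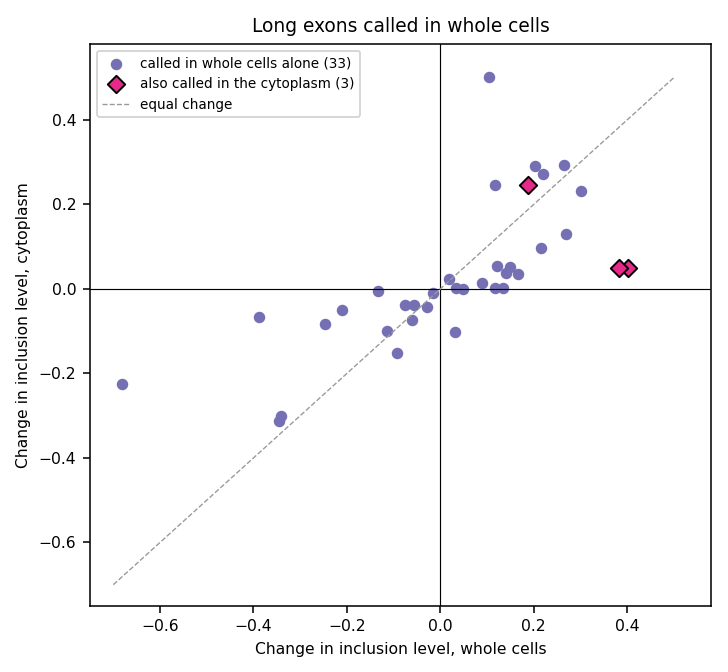
Change in inclusion level in the cytoplasm (y axis) against that in whole cells (x axis), both CHERP minus EGFP siRNA, for the 36 exons called in whole cells that had a mean of at least 20 cytoplasmic reads, with the dashed line of equal change. Of the points, 34 lie in the quadrants of equal direction, and the 3 diamonds, RTN3 as a pair and WAC, were also called in the cytoplasm.

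Some exons called in whole cells had lower levels in the cytoplasm and others did not. The MAP4 exon of 3384 nt had levels of 0.00910 and 0.0128 with EGFP siRNA and of 0.0129 and 0.0133 with CHERP siRNA there, far below those of whole cells. The exon of ACIN1 had at most 0.00363, that of TIAL1 at most 0.0215 and that of SNRNP70 at most 0.00856. F3 had 0.0684 and 0.0684 with EGFP siRNA against 0.00171 and 0.00233 with CHERP siRNA (adjusted p = 0.126). The F3 levels rest on 4 and 4 against 1 and 1 inclusion reads. Inclusion reads per cytoplasmic library were 0 to 4 for ACIN1, 1 to 5 for TIAL1 and 35 to 69 for SNRNP70. WNK1 did not have lower levels there, with 0.305 and 0.241 against 0.233 and 0.215. Of 77 exons of nonsense-mediated decay transcripts with 20 reads in both fractions, 50 had a lower level in the cytoplasm with EGFP siRNA and 23 a higher one, with medians of 0.635 in whole cells and 0.532 in the cytoplasm. Of 233 coding exons 135 were lower and 82 higher.

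Whether the effect of the siRNA differed between fractions was tested by an interaction in 841 long exons, and none passed the threshold (lowest adjusted p = 0.471, that of SNRNP70), while 30 had an unadjusted p under 0.05. No SE event of the 23892 present in both tables passed either, and 660 had an unadjusted p under 0.05.

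The abundance of the genes that host these exons was measured from their SE, alternative 5′ and alternative 3′ splice site reads, those of the long exon included. In whole cells 193 of 1589 host genes were higher with CHERP siRNA and 253 lower (adjusted p under 0.05, limma), 12.1% and 15.9%, where 13.3% and 13.7% of all 9660 genes were called. Of the 24 genes measured that host a fallen exon 10 were higher and 0 lower, with a median log2 change of 0.47. Of the 26 that host a risen exon 2 were higher and 6 lower, with a median of -0.08. In the cytoplasm 204 of 1231 host genes were higher and 272 lower, beside 19.1% and 19.9% of all 7293 genes. There the genes of fallen exons had 11 higher and 2 lower of 21, and those of risen exons 3 and 12 of 24, with medians of 0.63 and -0.55. The exons were chosen on the whole-cell libraries, and no test was made of these groups of genes. The skipping and inclusion reads that set an exon's level also count toward its gene's abundance, so the measures are not independent. The size of this was not tested.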

How the data were processed

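The authors mapped reads to hg19 with STAR 2.5.2b and counted events with rMATS, whose version is not given in the sources used here. The deposited SE tables give inclusion and skipping reads, unnormalized, with 2 libraries joined in each cell, and effective lengths. The 20 columns of inclusion levels, their p-values and FDR, the table of mutually exclusive exons and the cytoplasmic table of gene fold changes were not used. The libraries in a cell carry no replicate number and are called first and second by their place. Inclusion against skipping reads was fitted for every SE event by a quasi-binomial model. Each event's Pearson dispersion had a floor of 1 and was moderated over all events with squeezeVar of limma 3.58.1 (R 4.3.3), with a trend on mean reads. The prior degrees of freedom were infinite, and dispersions over the long exons lay between 2.28 and 4.75. P-values were adjusted by Benjamini-Hochberg over the SE table. Gene abundance was compared by limma as log2(value + 0.01), leaving out genes under 20 reads per library on average. The steps were tested on simulated data.

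Named were the 10 largest rises and falls in whole cells with an adjusted p under 0.05, 20 or more reads per library and libraries that did not overlap, 5 of each in the cytoplasm, the 3 longest exons and every called exon of 6 gene lists. Members and lists were chosen with earlier results of these data known. Gene parts came from GENCODE 44 lifted to GRCh37, whereas the authors used GENCODE 19. Sequences were read with pysam 0.24.0. Tables were handled in Python 3.11.15 with pandas 2.3.3 and numpy 2.4.6. The values of 1 called exon are not reported here.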

Additional observations from a re-analysis of the deposited data

How the results depend on the processing

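The count of 54 long exons called in whole cells was 0 by limma on the log2 odds (171 at an unadjusted p under 0.05) and between 3 and 5 without each library in turn. Alternatives chosen after seeing the data gave 0 with the floor on the moderated dispersion alone (205 at an unadjusted p under 0.05), 129 with dispersions of 0 also left out, and 25 for exons that share no terminal splice site. The 3 calls in the cytoplasm became 19 with the dispersion of events whose rarer form had 10 or more reads, 0 on the log2 odds (106 unadjusted), 5 with a mean of at least 50 reads, 0 without any one library, 1 with a change of at least 0.1, and 0 (56 unadjusted) and 31 with the 2 handlings of the floor. The 0 interactions became 0 to 1 without a library. The 446 host genes called in whole cells were 258 without a read filter and 77 to 471 without a library, and the 476 in the cytoplasm 268 and 246 to 323. The cause of these shifts was not tested, beside the smaller samples. The other settings kept each count within 1.5 times. No paired analysis was possible because the libraries joined in a cell carry no replicate number.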

Other observations

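Some long exons had very different levels in the fractions with EGFP siRNA. The 1512 nt exon of SDCBP, a syntenin scaffold gene, had 0.0397 and 0.0458 in whole cells and 0.691 and 0.726 in the cytoplasm. With CHERP siRNA it had 0.0826 and 0.0641 in whole cells, a rise that was not called with its own spread (adjusted p = 0.197), and 0.583 and 0.631 in the cytoplasm. The cytoplasmic SDCBP levels rest on 2 and 2 skipping reads with EGFP siRNA and on 10 and 8 with CHERP siRNA. The 2850 nt exon of ZHX1, a zinc finger homeobox gene, had 0.894 and 0.861 in whole cells and 0.259 and 0.149 in the cytoplasm. With CHERP siRNA it had 0.412 and 1.00 in the cytoplasm. These cytoplasmic levels rest on 2 and 5 against 1 and 0 skipping reads. The SDCBP exon shares its 5′ splice site with an annotated first exon, and the ZHX1 exon its 3′ splice site with an annotated last exon. Fraction and read length changed together, and neither was tested.

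With the dispersion taken from events whose rarer form had 10 or more reads, 19 of 1072 long exons were called in the cytoplasm, 10 higher and 9 lower. Of all 31924 cytoplasmic SE events, 288 were called in this way. Of the 49 exons called in whole cells with cytoplasmic reads, 12 were among them in the same direction. Over all SE exons the same count was 131 of 492, so the long exons lay near the share of all SE exons.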
